A study of Homo sapiens with 6 samples.

Results

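The Musashi genes MSI1 and MSI2, the insulin-like growth factor 2 mRNA-binding protein genes IGF2BP1, IGF2BP2 and IGF2BP3, and the genes LIN28A and LIN28B were examined for chromatin occupancy by PLAG1-S and USF2 in K562 cells. The 7 genes were chosen by name, with earlier results of these data known. A peak was assigned to a gene when any base of it lay inside the hg38 gene body or within 3 kb of it. Of the 81170 peaks in the 4 deposited lists, 56 met this rule. They comprised 28 of 37574 clone 4 PLAG1-S peaks, 17 of 29889 clone 5 PLAG1-S peaks, 8 of 9338 clone 4 USF2 peaks and 3 of 4369 clone 5 USF2 peaks.

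K562 is a human chronic myelogenous leukemia line. Both cell populations used, clone 4 and clone 5, overexpressed FLAG-tagged PLAG1-S together with USF2 from the same construct, in which a P2A site separates the factors, and each population stands for 1 clone. All groups thus carried both transgenes, and a library from unmodified K562 cells was not analysed here. PLAG1-S, the short translational isoform of the zinc finger protein PLAG1, was precipitated with anti-FLAG from each clone, and USF2 with an anti-USF2 antibody. Each factor thus had 2 libraries, for which the labels give a nominal depth of 42.5 M single-end reads of 50 bases per library. The 2 input libraries, at 55 M reads each, served merged as the background of all 4 lists, per the peak names.

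Musashi proteins bind short motifs in mRNAs and control their translation and stability. MSI2 sustains self-renewal of hematopoietic stem cells and is upregulated in myeloid leukemias, and MSI1 is best known from neural and epithelial stem cells. The IGF2BP proteins stabilise target mRNAs, among them those with N6-methyladenosine, and are abundant in the embryo and in many tumours. LIN28A and LIN28B block the maturation of let-7 microRNAs, and LIN28B marks fetal blood progenitors. USF2 is a basic helix-loop-helix leucine zipper factor that binds the E-box, CACGTG, and PLAG1 binds a G-rich bipartite site, a GGGGC or GAGGC core followed at a distance by GGG.

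The promoter sequences that some peaks of these genes fell on are shown first. The summits at MSI1, MSI2, IGF2BP1 and IGF2BP2 lay in no available promoter window. RefSeq windows of 300 bases (GRCh38.p14, from 250 bases before a gene start to 50 after it) were present for MSI2, IGF2BP2, IGF2BP3 and LIN28B, and for DHDDS, the neighbour of LIN28A. Windows of 3 of these held the summits of at least 3 libraries. Each of the 3 thus held a USF2 summit, so the choice favours windows with an E-box. Their 250 upstream bases are given 5′ to 3′ on the strand of the gene, with each E-box in capitals. The LIN28B window (plus strand, chr6:104956857-104957106) precedes an internal start, 28 to 56 bp from the summits of 3 libraries. The IGF2BP3 window (minus strand, chr7:23470492-23470741) and the DHDDS window (plus strand, chr1:26432071-26432320) precede the first base of their genes.
LIN28B: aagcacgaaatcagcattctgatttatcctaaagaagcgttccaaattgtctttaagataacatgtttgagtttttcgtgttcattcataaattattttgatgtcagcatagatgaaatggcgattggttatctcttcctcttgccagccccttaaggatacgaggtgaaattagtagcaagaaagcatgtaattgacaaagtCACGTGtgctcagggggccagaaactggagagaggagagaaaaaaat
IGF2BP3: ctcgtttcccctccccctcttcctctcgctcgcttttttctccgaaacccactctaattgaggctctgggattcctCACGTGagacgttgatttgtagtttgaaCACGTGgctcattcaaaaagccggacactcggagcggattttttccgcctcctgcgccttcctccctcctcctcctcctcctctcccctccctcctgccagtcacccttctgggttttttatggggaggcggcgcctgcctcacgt
DHDDS: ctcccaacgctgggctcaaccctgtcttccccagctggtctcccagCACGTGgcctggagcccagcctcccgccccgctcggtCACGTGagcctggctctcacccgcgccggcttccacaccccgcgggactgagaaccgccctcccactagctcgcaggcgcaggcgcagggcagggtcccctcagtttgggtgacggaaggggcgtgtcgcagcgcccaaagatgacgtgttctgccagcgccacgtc

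The LIN28B window held 1 E-box, 47 bases upstream of the internal start. The clone 4 PLAG1-S summit was 1.5 bp from its centre, the clone 5 PLAG1-S summit 16.5 bp and the clone 4 USF2 summit 11.5 bp. The IGF2BP3 window held 2 E-boxes, 174 and 146 bases upstream of the start. The clone 4 PLAG1-S, clone 5 PLAG1-S and clone 4 USF2 summits lay 1.5, 17.5 and 4.5 bp from the centre of the proximal E-box. In the DHDDS window, which also held 2 E-boxes, the summits of the clone 5 PLAG1-S, clone 4 USF2 and clone 5 USF2 libraries were 1.5, 3.5 and 5.5 bp from the proximal E-box, whereas the clone 4 PLAG1-S summit was 18.5 bp from each of them. Among all 34943 promoter windows 7.23% held an E-box, against 84.1% of the 930 windows with the summit of a peak co-bound by both factors. Of the 3202 windows with a reproducible PLAG1-S summit and no co-bound USF2 peak, 19.1% held an E-box.

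The G-rich site was searched as GGGGC or GAGGC followed by GGG after 6 to 8 bases, on both strands. It was found in the DHDDS window, between the E-boxes without overlapping them. Its centre lay 0.5 bp from the clone 4 PLAG1-S summit but 19.5 bp from that of clone 5. The G-rich site was not found in the LIN28B and IGF2BP3 windows shown above, while 32.2% of all windows and 51.0% of those with a co-bound summit held it. Of the windows with a reproducible PLAG1-S summit and no co-bound USF2 peak, 56.7% held it. The median G and C content of these classes was 58.7%, 69% and 70%, in that order. The other LIN28B window, at an upstream start, held 4 G-rich matches in 2 overlapping pairs and no E-box. A clone 5 PLAG1-S peak with a fold enrichment of 4.39 had its summit there, 73.0 bp from the nearest match, and no clone 4 peak overlapped it. The windows of MSI2 end before its promoter peak begins or begin after it ends, and those of IGF2BP2 held no summit, so that the sequence at these summits was not analysed here.

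Reproducible peaks are those of clone 4 that shared 1 bp or more with a peak called for that factor in clone 5. A PLAG1-S peak was counted as co-bound when its edges lay within 100 bp of a USF2 peak and both were reproducible. All 7 genes had a reproducible PLAG1-S peak. Of all 20037 protein-coding genes, 52% had such a peak inside or within 3 kb. A reproducible USF2 peak was present at 3 of the 7 genes, MSI2, IGF2BP1 and LIN28A, against 10.3% of all coding genes. The same 3 genes had a co-bound peak, against 9.98% of all coding genes. Within 3 kb of either gene end, 5 of the 7 genes had a reproducible PLAG1-S peak (45.4% of coding genes), all but MSI1 and LIN28B, and 3 had a USF2 peak (8.84%) and a co-bound peak (8.6%). In single libraries PLAG1-S peaks were called at all 7 genes in both clones (64% and 58.3% of coding genes in clones 4 and 5). USF2 peaks were called at 6 of the 7 in clone 4 (25.3% of coding genes), MSI1 being the exception, and at 3 in clone 5 (13.6%).

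These counts describe a list chosen with earlier results of these data known, and no test was made on it. They also depend on the window. With the gene body alone and no flanks, the number of genes with a co-bound peak was 1, MSI2, since the IGF2BP1 and LIN28A peaks lie outside the annotated genes. MSI2 was in turn the gene lost when a −log10 q of at least 10 or a 50% overlap between clones was required, as its clone 5 USF2 peak had a −log10 q of 4.42 and was 169 bp wide, against 391 bp in clone 4. In the clone 4 lists alone USF2 was counted at 6 genes and co-binding at 5. The clone 5 lists alone gave 3 for each.

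When peaks of the 4 lists that overlapped were merged, the 56 peaks formed 30 regions. Of these, 3 regions were present in all 4 lists and 3 in both PLAG1-S lists and the clone 4 USF2 list. A further 9 had PLAG1-S in both clones and no USF2. In single lists only were 15 regions, 11 of them in clone 4 PLAG1-S, 2 in clone 5 PLAG1-S and 2 in clone 4 USF2. Of the 28 clone 4 PLAG1-S peaks at these genes 17 were met by a clone 5 peak (60.7%), close to the 57.1% of the whole list. Of the 8 clone 4 USF2 peaks 3 were met (37.5%), against 25.8% of the whole list.

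**Figure D1:**
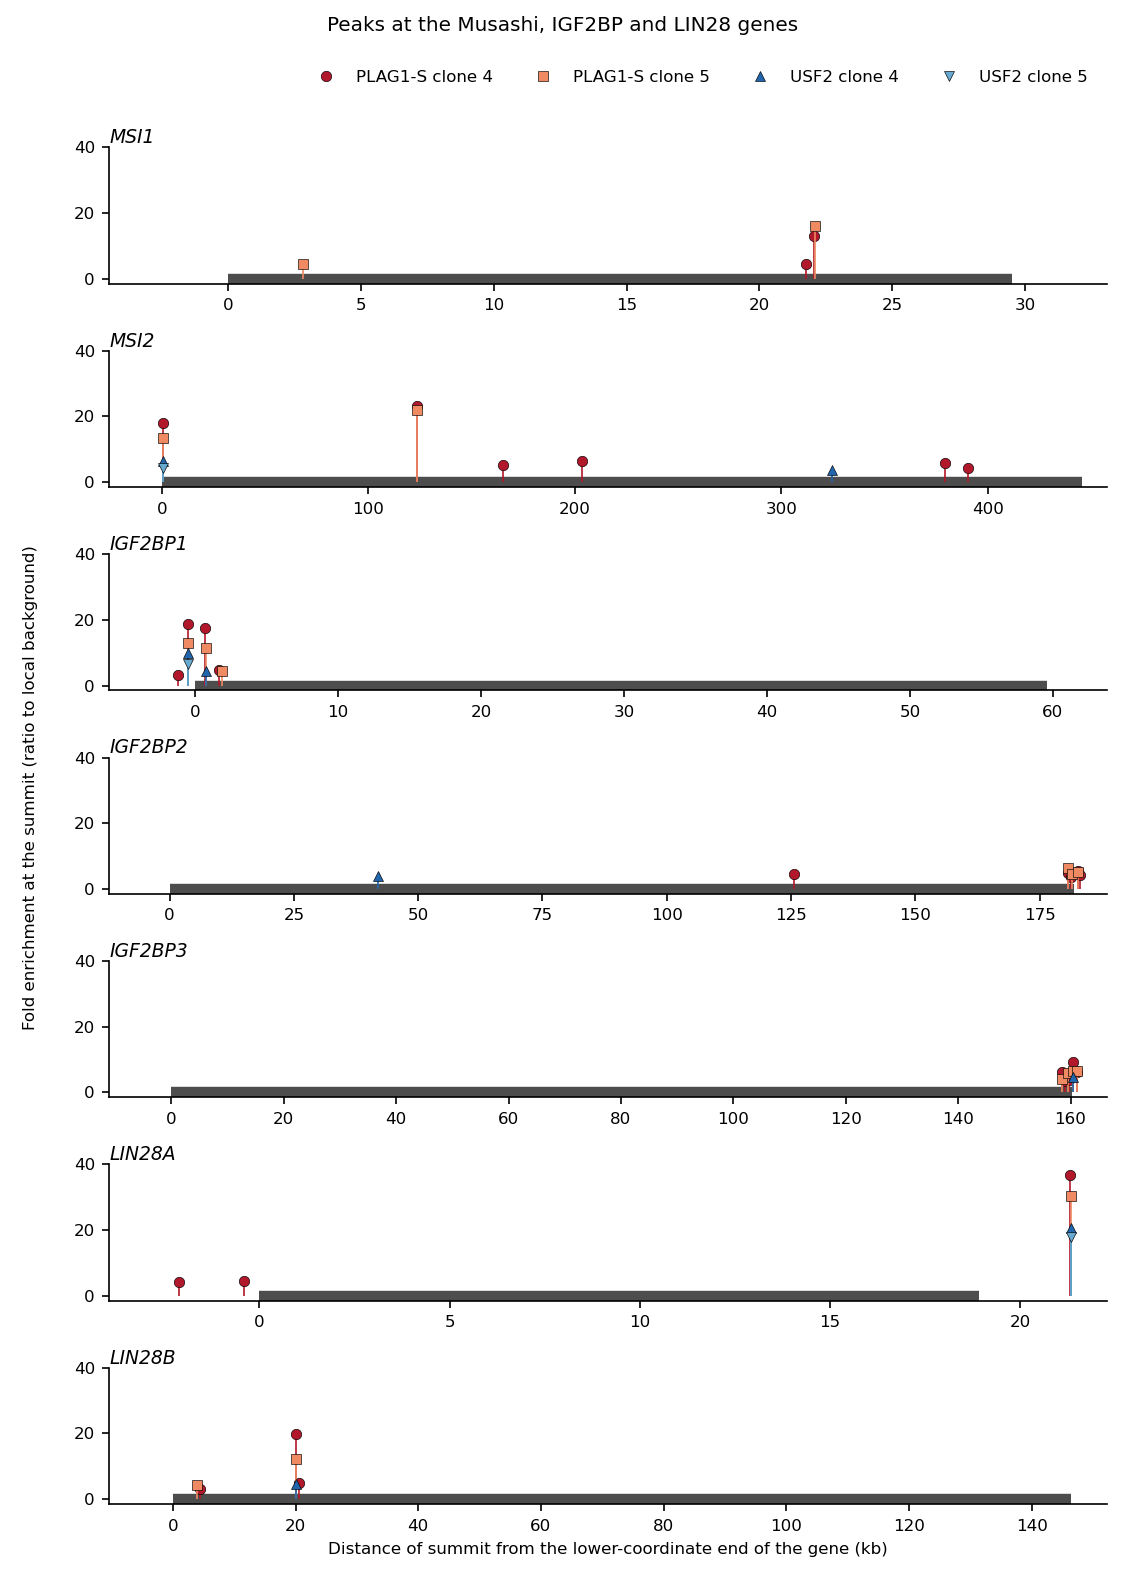
Summits of all 56 peaks, drawn by distance in kb from the lower-coordinate end of each gene (x axis, a separate scale per gene) and by fold enrichment, a ratio to the local background (y axis). Grey bars are gene bodies and symbols are the 4 libraries, and a reader should see that USF2 and PLAG1-S summits in all 4 libraries coincide at 3 places, at MSI2, at IGF2BP1 and beyond the higher end of LIN28A.

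The fold enrichment that follows is the authors' ratio of the summit to the local background. The number of fragments over each summit was recovered from it and from the deposited p, and carries an exact 95% Poisson interval that covers counting error only. Local backgrounds at the 56 peaks ranged from 2.60 to 5.90 fragments. At BCR, part of a segment that K562 carries in amplified form, the median was 16.6 to 18.2 fragments in the 4 lists, against list medians of 3.41 to 3.78. None of the 7 genes lay at a background of that size.

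MSI2 had its promoter peak in all 4 lists. The clone 4 PLAG1-S peak (chr17:57255978-57256749) had a fold enrichment of 17.9 with 81 fragments (64.3 to 101), and that of clone 5 had 13.4 with 57 fragments (43.2 to 73.9). The USF2 fold enrichment was 6.33 with 28 fragments (18.6 to 40.5) in clone 4 and 4.27 with 18 fragments (10.7 to 28.4) in clone 5. For each factor clone 4 was the higher, and the intervals of the clones overlapped. The clone 4 PLAG1-S summit fell 470 bp after the first annotated start of MSI2 and before a second start, and it was also inside the long noncoding RNA gene LOC101927510, 675 bp from the end of that gene. In both clones the USF2 peak was low for the PLAG1-S peak beside it. Its fold enrichment was 0.353 of that of PLAG1-S in clone 4 and 0.319 in clone 5, where 21.6% and 17.0% of the 2108 co-bound peaks had a lower ratio.

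IGF2BP1, like MSI2 on chromosome 17, had a co-bound peak beside one end of the gene. The clone 4 PLAG1-S peak (chr17:48995554-48996345) lay 213 bp outside the lower-coordinate end, with a fold enrichment of 18.8 and 129 fragments (108 to 153). In clone 5 it was 12.9 with 84 fragments (67 to 104), and the intervals, which are not scaled for depth, did not overlap. USF2 reached a fold enrichment of 10.1 with 61 fragments (46.7 to 78.4) in clone 4 and 6.44 with 41 fragments (29.4 to 55.6) in clone 5. The PLAG1-S and USF2 summits were at the same base in clone 4 and 3 bp apart in clone 5. PLAG1-S had nearly the same fold enrichment here as at MSI2 in each clone, whereas USF2 was higher at IGF2BP1 in each clone. The USF2 to PLAG1-S ratio was 0.534 and 0.50, and 67.8% and 62.0% of co-bound peaks had a lower ratio.

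The strongest peaks assigned to any of the 7 genes lay at LIN28A, but beyond the gene. They fell between its higher-coordinate end and DHDDS, a gene of dolichol synthesis. The clone 4 PLAG1-S peak (chr1:26431829-26432448) was 2101 bp past the end of LIN28A, and its summit was 183 bp from the start of DHDDS and inside the long noncoding RNA gene LOC124903883. The fold enrichments of PLAG1-S were 36.6 in clone 4 and 30.2 in clone 5, with 220 (192 to 251) and 166 (142 to 193) fragments. Those of USF2 were 20.8 and 17.9, with 121 (100.4 to 145) and 101 (82.3 to 123) fragments. In every list this peak ranked in the top 1.97% or higher. Of all co-bound peaks, 93.2% had a lower clone 4 PLAG1-S fold enrichment and 94.3% a lower clone 4 USF2 fold enrichment. The peak belongs to LIN28A only through the 3 kb rule. LIN28A otherwise had 2 PLAG1-S peaks of clone 4, with fold enrichments of 4.06 and 4.36, below its lower-coordinate end, and no other peak.

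**Figure D2:**
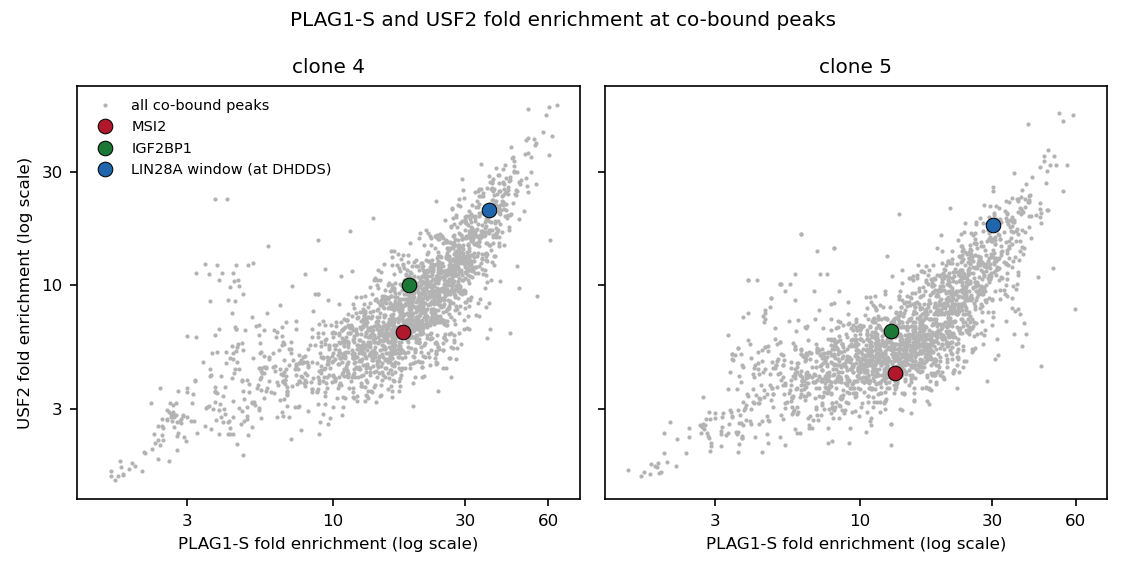
PLAG1-S (x axis) against USF2 fold enrichment (y axis) at the 2108 co-bound peaks in clone 4 (left) and clone 5 (right), both axes logarithmic. Coloured points mark MSI2, IGF2BP1 and the peak in the LIN28A window at DHDDS, and a reader should see MSI2 in the lower part of the cloud at its PLAG1-S level (USF2 6.33 and 4.27) and the DHDDS peak near its upper end (20.8 and 17.9).

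LIN28B, IGF2BP3 and a further site at IGF2BP1 had PLAG1-S in both clones but USF2 in clone 4 only. At the internal LIN28B start the PLAG1-S fold enrichment was 19.8 with 85 fragments (67.9 to 105) in clone 4, and 12.1 with 49 fragments (36.3 to 64.8) in clone 5. These intervals, which are not scaled for depth, did not overlap. USF2 had a fold enrichment of 4.60 with 19 fragments (11.4 to 29.7) in clone 4, and no peak was called in clone 5. PLAG1-S at LIN28B was thus at the level of the MSI2 promoter in each clone, and clone 4 USF2 had the lower fold enrichment, with overlapping intervals. The 3 remaining LIN28B peaks, 2 of clone 4 (2.98 and 4.93) and the clone 5 peak at the upstream start, did not recur in the other clone.

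IGF2BP3 had a cluster of weaker PLAG1-S peaks around its start, 5 in clone 4 and 4 in clone 5. The highest, over the E-boxes (chr7:23470473-23470841), had PLAG1-S fold enrichments of 9.14 and 6.52 in clones 4 and 5, with 51 (38.0 to 67.1) and 34 (23.5 to 47.5) fragments. USF2 was called there in clone 4 with a fold enrichment of 4.56 and 25 fragments (16.2 to 36.9). The other reproducible IGF2BP3 regions had PLAG1-S fold enrichments between 3.61 and 6.42 and no USF2 peak, and a clone 4 peak of 3.39 did not recur in clone 5.

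The further site at IGF2BP1 (chr17:48997038-48997565) was 732 bp inside the gene. Its PLAG1-S fold enrichments of 17.6 and 11.5 (87 and 55 fragments) came close to those of the co-bound peak, and clone 4 USF2 had a fold enrichment of 4.47 with 24 fragments. A last IGF2BP1 region, about 1.66 kb inside the gene, had PLAG1-S fold enrichments of 4.70 and 4.54 in clones 4 and 5. A low clone 4 peak of 3.26 lay under the edge of the wide clone 5 peak outside the gene. Over all reproducible PLAG1-S peaks with a clone 4 USF2 peak within 100 bp, 43.2% had a clone 5 USF2 peak as well. At the 7 genes this held for 3 of 6. The peaks missing in clone 5 had 19 to 25 fragments in clone 4, and the clone 5 list is the smaller, so that absence of a call there does not show absence of USF2.

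The strongest PLAG1-S peak inside MSI2 was not the promoter peak. It lay about 124 kb into the gene (chr17:57379520-57379902), with fold enrichments of 23.2 and 21.9 and 95 (76.9 to 116) and 85 (67.9 to 105) fragments in clones 4 and 5. The clones overlapped, and their summits were 13 bp apart. In the clone 4 list it ranked in the top 2.19% and in the clone 5 list in the top 1.82%, higher than the promoter peak (3.88% and 5.47%). No USF2 peak was called there in either clone. Among the 823 reproducible PLAG1-S peaks at least as strong in clone 4, 46 had no USF2 peak of either clone within 100 bp (5.59%). The gene table used here has no exons, so the part of MSI2 it falls on was not assigned. MSI2 also had 4 PLAG1-S peaks and 1 USF2 peak of clone 4 deeper in the gene, with fold enrichments between 3.61 and 6.52, none of them met by a clone 5 peak.

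At MSI1 the main peak also lay inside the gene (chr12:120361581-120361998) and had no USF2. The PLAG1-S fold enrichment was 12.9 with 48 fragments (35.4 to 63.6) in clone 4 and 16.1 with 57 fragments (43.2 to 73.9) in clone 5. Clone 5 was the higher here, and the intervals overlapped. The summit was 22.1 kb from the lower-coordinate end of MSI1, and the nearer end was more than 3 kb away. Of the 3011 reproducible PLAG1-S peaks at least as strong, 23.7% had no USF2 peak in either clone. The remaining MSI1 peaks, a clone 4 and a clone 5 PLAG1-S peak, did not overlap and had fold enrichments of 4.48 and 4.42. A PLAG1-S peak with fold enrichments of 5.4 and 6.20 fell just outside the rule, 3518 and 3503 bp from MSI1 in clones 4 and 5, whereas the assigned peaks farthest from a gene, those at DHDDS, were 2101 to 2216 bp away.

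IGF2BP2 had weak PLAG1-S peaks on both sides of its start and no reproducible USF2 peak. The 3 reproducible regions there had PLAG1-S fold enrichments of 4.91, 3.71 and 5.4 in clone 4, and 6.23, 4.54 and 5.18 in clone 5, with 16 to 27 fragments. The intervals of the clones overlapped. A weaker summit of clone 4 (4.21) belonged to the outermost region, and a clone 4 peak of 4.42 deep in the gene did not recur. The only USF2 peak of IGF2BP2, in clone 4, lay 42.0 kb from the lower-coordinate end with a fold enrichment of 3.90 and no PLAG1-S peak beside it.

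**Figure D3:**
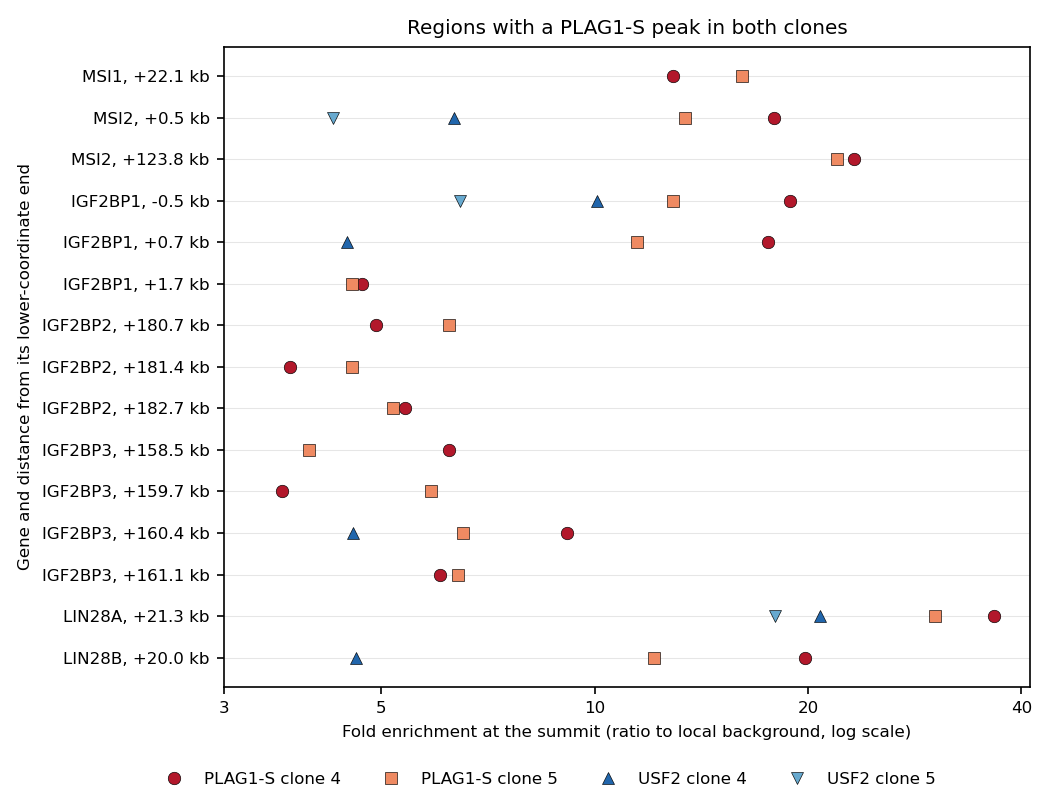
Fold enrichment (x axis, log scale) in each library at the 15 regions with a PLAG1-S peak in both clones, labelled by gene and by the distance in kb of the clone 4 PLAG1-S summit from the lower-coordinate end (y axis). A missing symbol means that no peak was called. A reader should see USF2 in both clones at 3 regions, USF2 in clone 4 only at 3, and PLAG1-S alone at 9. The strongest of these 9 are at MSI1 (12.9 and 16.1) and deep in MSI2 (23.2 and 21.9).

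The clone 5 to clone 4 ratio of PLAG1-S fold enrichment was below 1 at 10 of the 15 regions with PLAG1-S in both clones and above 1 at 5. Over all reproducible PLAG1-S peaks the median ratio was 0.887 (quartiles 0.730 and 1.08). Over the 2108 co-bound peaks it was lower, with a median of 0.813 (quartiles 0.71 and 0.92). The quartiles used next are those of all reproducible PLAG1-S peaks. Below the lower quartile were 5 regions, LIN28B with 0.613, IGF2BP1 with 0.684 at the co-bound peak and 0.652 at the further site, and IGF2BP3 with 0.633 and with 0.714 over the E-boxes. Above the upper quartile were 4 regions, MSI1 with 1.25, IGF2BP2 with 1.27 and 1.22, and IGF2BP3 with 1.63. The remaining 6 lay between the quartiles, among them the MSI2 promoter (0.748), the peak deep in MSI2 (0.946) and DHDDS (0.826). The fragment intervals of the clones, which are not scaled for depth, were apart at 2 regions only, the co-bound IGF2BP1 peak and LIN28B. Clone 4 was the higher at both, and its local background was higher too. That background was 5.90 against 5.59 fragments at IGF2BP1 and 3.34 against 3.12 at LIN28B. Whether depth has a part in these separations was not tested. IGF2BP3 had regions on both sides of the quartiles, all with overlapping intervals.

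MSI2 is the longest of the 7 genes, with 446 kb, and long genes have more room for peaks. Per 100 kb of gene and flanks, reproducible PLAG1-S peaks numbered 0.443 at MSI2, 0.657 at LIN28B, 2.13 at IGF2BP2, 2.41 at IGF2BP3, 2.82 at MSI1, 4.01 at LIN28A and 6.10 at IGF2BP1. The LIN28A value rests on 1 peak, the one outside the gene at DHDDS. The IGF2BP1 value counts 4 clone 4 peaks, 2 of which met the same clone 5 peak. Over all coding genes the pooled value, summed peaks over summed length, was 1.42. The median over coding genes longer than 200 kb was 0.0775, and 50.4% of these genes had a reproducible PLAG1-S peak and 8.22% a co-bound one. These shares were 58.5% and 10.2% for genes of 50 to 200 kb, and 49.9% and 10.1% for genes under 50 kb. For genes of 50 to 200 kb, the class of the 3 IGF2BP genes and LIN28B, the median was 0.808. Both MSI2 and LIN28B were thus below the pooled value over all coding genes. MSI2 was above the median of its length class and LIN28B below that of its own. With a peak at only 50.4% of genes over 200 kb, nearly any of them that has a peak exceeds the median of that class.

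The co-bound peaks most like the MSI2 promoter peak in the fold enrichments of the 4 libraries were sought among 1368 co-bound peaks within 3 kb of a coding gene end, by Euclidean distance of the log2 values. The nearest was shared by GLS2 and SPRYD4, with a distance of 0.0463 and a PLAG1-S fold enrichment of 17.9 in clone 4 and 13.4 in clone 5, beside USF2 at 6.49 and 4.19. It was followed by a peak shared by ADK and AP3M1 (distance 0.0865), a peak at SRA1, EIF4EBP3 and ANKHD1-EIF4EBP3 (0.117), a peak shared by AP1S1 and VGF (0.149), and a peak shared by EEF1B2 and NDUFS1 (0.149). The likeness rests on 4 libraries that share their input.

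Genes that act with these RNA-binding proteins, and other regulators that bind mRNA, were examined as 5 lists. They held 95 different genes that all matched the RefSeq table. Of these, 76 had a reproducible PLAG1-S peak inside or within 3 kb (80.0%, against 52% of all coding genes), 26 a reproducible USF2 peak (27.4%, against 10.3%) and 24 a co-bound peak (25.3%, against 9.98%). Within 3 kb of a gene end 22 of them were co-bound, where 8.6% of all coding genes were. The lists were chosen by hand, with earlier results of these data known. They were not tested and differ from all coding genes in many ways.

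In the let-7 pathway, where LIN28 acts, 1 of 13 genes of let-7 biogenesis and decay was co-bound (7.69%, near the 9.98% of all coding genes). This was KHSRP, which promotes let-7 maturation, with PLAG1-S fold enrichments of 39.0 and 29.5 and USF2 fold enrichments of 16.5 and 10.9 in clones 4 and 5. Of 20 let-7 and LIN28 targets 5 were co-bound (25%, against 9.98%), 4 of them at a gene end. The DNA-binding protein gene ARID3B had PLAG1-S fold enrichments of 29.0 and 23.2, the receptor gene IGF1R 25.03 and 26.4, and HRAS 23.8 and 17.3. ARID3B was thus the highest in clone 4 and IGF1R in clone 5. NRAS was the other.

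Of 15 Musashi targets and partners 5 were co-bound (33.3%, against 9.98% of all coding genes), 4 of them at a gene end. NUMBL, a relative of the Notch antagonist NUMB, had PLAG1-S fold enrichments of 22.0 and 18.1, and SMAD3 had 21.0 and 19.4. SYNCRIP, an RNA-binding partner of MSI2, was also co-bound. Of 18 m6A writers, erasers and readers, the class that IGF2BP proteins belong to as readers, 3 were co-bound (16.7%, against 9.98%). They were the reader gene YTHDF1 with PLAG1-S fold enrichments of 39.8 and 33.5, RBM15B of the writer complex with 22.9 and 17.2, and HNRNPA2B1 with 3.90 and 3.78. At HNRNPA2B1 the summits of the factors were 349 bp apart in clone 4, where the quartiles over all co-bound peaks were 6 and 35 bp.

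Among 29 other regulators that bind mRNA, 10 were co-bound (34.5%, against 9.98% of all coding genes). CPEB1, which controls poly(A) tails, had PLAG1-S fold enrichments of 38.3 and 37.1, the splicing regulator gene QKI 35.7 and 33.5, and YBX1 28.1 and 22.8. At YBX1 the summits of the factors were 826 bp apart in clone 4, while their edges met the 100 bp rule. HNRNPD, PCBP1, PTBP1, CPEB4, DAZAP1 and ZFP36L2 were also co-bound.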

How the data were processed

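ChIP-seq peak lists of K562 clones 4 and 5 were used, with a PLAG1-S and a USF2 list per clone. The authors called the peaks with MACS2 against merged inputs on hg38. The submitters' processing notes also name FastQC, cutadapt, HISAT2 2.0.4, SAMtools, bedtools and HOMER. The fold in the lists is the enrichment ratio at the summit deposited by the authors. The authors' caller also gave −log10 p and −log10 q, both as deposited. The deposited score is a scaled −log10 q and was not needed. The highest deposited q-value was 0.0099 for PLAG1-S and 0.0494 for USF2, so the USF2 lists reach weaker peaks.

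Peaks were joined to the RefSeq gene table of GRCh38.p14, which has 1 interval per gene and no exons. Fragment numbers were solved from the fold and the −log10 p with a tolerance of 0.001 on the latter, and came out for at least 99.9% of peaks of each list. The joins and the recovery were tested on simulated data. Promoter windows and gene starts came from the RefSeq sequence table. Python 3.11.15, numpy 2.4.6, pandas 2.3.3, scipy 1.17.1 and matplotlib 3.10.9 were used. No test was run, since each factor has 2 clones, and shares over all coding genes stand beside the counts. Fold enrichments of different antibodies are compared only as ratios within a clone. Libraries of the same number come from the same clone, per the labels, which pairs PLAG1-S with USF2. Alternatives covered the gene window, the q threshold, how clones are combined and the distance between factors. All 7 genes are named, and in the related lists every gene co-bound at a gene end, with values for the 3 strongest, except that some genes of the lists are not reported here. The 7 genes and the lists were chosen with earlier results of these data known.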

Additional observations from a re-analysis of the deposited data

How the results depend on the processing

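The counts were recomputed under each alternative. The number of genes with a reproducible PLAG1-S peak was 6 or 7 in each, and requiring a −log10 q of at least 2 in all lists changed no count. With no flanks around the genes there were 11 reproducible PLAG1-S peaks, 1 reproducible USF2 peak and 1 co-bound peak, each of the last at 1 gene. A −log10 q of at least 10 left 9 reproducible PLAG1-S peaks. Both that threshold and a 50% overlap of the peaks between clones lowered the genes with a reproducible USF2 peak, and those with a co-bound peak, from 3 to 2, and the gene lost was MSI2. A window of 1 kb also gave 2, without LIN28A. The union of the clones gave 28 PLAG1-S peaks, 8 USF2 peaks at 6 genes and 6 co-bound peaks at 5 genes. Co-bound peaks numbered 5 when edges within 1 kb counted. Libraries were paired by clone, and taking the clone as replicate block (the mean of within-clone counts) gave 22.5 PLAG1-S peaks at 7 genes, 5.5 USF2 peaks at 4.5 genes and 4.5 co-bound peaks at 4 genes, where only the number of USF2 peaks moved by more than 1.5 times. When either clone was left out, PLAG1-S peaks numbered 17 to 28, USF2 peaks 3 to 8 at 3 to 6 genes, and co-bound peaks 3 to 6 at 3 to 5 genes, and genes with PLAG1-S stayed at 7. In each range the upper value is that of clone 4 alone. The lists hold peaks that passed a threshold, so binding below it cannot be seen.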

Other observations

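The promoter windows of the genes differed widely in base composition. The IGF2BP2 window at the first base of the gene had 80.7% G and C, at or above 98.2% of all promoter windows. It held G-rich matches, no E-box and no summit of either factor, and its PLAG1-S peaks lay on both sides of it. The window at the internal LIN28B start had 39.0% G and C and 8 CpG dinucleotides, at or above only 10.2% and 41.7% of all windows, and held the summits of 3 libraries. Windows with a co-bound summit had a median of 69.0% G and C and 31 CpG dinucleotides. The IGF2BP3 window had 56.3% and 17. The LIN28B window thus had a lower G and C content than the median of the co-bound windows, and it held an E-box. Its PLAG1-S peak was not co-bound by the rule used, and 19.1% of the windows with such a summit held an E-box, against 84.1% of the co-bound windows. Whether base composition has a part in the strength of these peaks was not tested.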
